A study of Mus musculus with 42 samples.

Results

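Purkinje cells are the large inhibitory neurons that carry the output of the cerebellar cortex. The 10 genes described here (Pcp2, Calb1, Pvalb, Car8, Itpr1, Ppp1r17, Rgs8, Gng13, Homer3 and Slc1a6) were taken by symbol from the 35275 genes of the deposited count tables. They were chosen with earlier results of these data known. All 10 were found and passed the filter on low counts in every fit. The samples were cerebellum of male C57BL/6 mice, with no transgene or deletion in any group. In AL, mice fed ad libitum to 6 months of age. In IF16 they fasted for 16 h each day, and in EOD for 24 h on alternate days, in both cases for 3 months from 3 months of age. A second set had the same 3 regimens followed by 2 months of ad libitum feeding and was collected at 8 months of age; its groups, whose labels add an R to the regimen, are called refed AL, refed IF16 and refed EOD here, so that the control group refed AL also differs from AL by age. Each of the 6 groups had 5 RNA-seq libraries. The labels number the samples of a group but do not state what separates them, so p-values measure the spread between these samples. The 12 samples of H3K9me3 chromatin and its input were not analysed here. The study asked what each fasting regimen alters and what remains after refeeding.

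In a Purkinje cell, glutamate from parallel fibres activates metabotropic receptors, which act through Gq and phospholipase C to make IP3, and IP3 opens the receptor ITPR1 on the endoplasmic reticulum to release calcium. CAR8 is a catalytically inactive carbonic anhydrase relative that binds ITPR1, and HOMER3 is a scaffold that binds ITPR1. Calbindin (Calb1) and parvalbumin (Pvalb) buffer the calcium, RGS8 speeds the shut-off of G proteins, GNG13 is a G protein gamma subunit, and PCP2 (also called L7) binds G protein alpha subunits of the Gi/o class. SLC1A6 (EAAT4) is the glutamate transporter of the Purkinje cell membrane, and PPP1R17 (G-substrate) is a phosphatase inhibitor activated by the cGMP-dependent kinase. Several of these genes are classical markers of the cell, although Pvalb is also expressed by molecular layer interneurons and Itpr1 by other neurons.

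Gng13 and Pcp2 were the members whose levels differed most between groups, and the DNA upstream of their start sites is shown for that reason. The sequences are the 250 bases before the RefSeq start nearest to the deposited gene start (GRCm38.p6), at chr17:25716922-25717171 on the plus strand for Gng13 and chr8:3625548-3625797 on the minus strand for Pcp2, written 5′ to 3′ along the gene. Capitals mark AGGTCA, the core of the element bound by ROR alpha (Rora, a transcription factor of Purkinje cells) and by other nuclear receptors, searched on both strands.
Pcp2: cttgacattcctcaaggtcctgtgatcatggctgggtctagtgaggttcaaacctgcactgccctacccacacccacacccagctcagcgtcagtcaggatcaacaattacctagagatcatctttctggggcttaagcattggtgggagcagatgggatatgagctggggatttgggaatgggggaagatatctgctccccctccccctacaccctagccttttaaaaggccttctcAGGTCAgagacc
Gng13: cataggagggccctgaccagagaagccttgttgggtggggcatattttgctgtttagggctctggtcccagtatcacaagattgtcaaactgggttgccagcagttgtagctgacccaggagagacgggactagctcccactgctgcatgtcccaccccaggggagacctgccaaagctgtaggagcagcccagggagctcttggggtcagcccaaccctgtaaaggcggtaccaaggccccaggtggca
The Pcp2 match lies 12 to 7 bases before the start. Of the 6 members found in the RefSeq promoter table (Pcp2, Pvalb, Rgs8, Gng13, Homer3, Slc1a6), 2 held a match in this window, Pcp2 and Homer3, and in Homer3 it lay on the opposite strand 157 to 152 bases before the start. Of all 32851 promoters in the table, 14% held one. A match describes letters and is no evidence of binding, and the Gng13 window holds none.

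Total counts per library ranged from 26799825 to 36167435, and the lowest count of any member in any library was 198, for Gng13. The tissue label was checked against markers. The summed level of 6 granule cell markers was between 3777 and 5087 CPM (counts scaled to library size, on one TMM scale over all libraries). Of the markers listed for brainstem and cerebellar nuclei, Hoxb5 had no count in 14 of the 30 libraries. Slc17a6 (12.8 to 57.5 CPM), Slc6a5 (20.8 to 42 CPM) and Tph2 (0.329 to 9.84 CPM) were counted in every library. How much adjoining tissue each sample held was not tested. Markers of choroid plexus, the tissue that makes cerebrospinal fluid, summed over 10 genes to between 33.9 and 4248 CPM. The group median of that sum was 2084 CPM for AL, 639 for IF16 and 1970 for EOD before refeeding, against 46.1, 35.3 and 41.6 CPM for the refed groups in the same order, and the ranges of EOD and refed IF16 did not overlap, while those of all other groups did. AL replicates 1 and 4 stood apart in Nrgn, at 4661 and 3707 counts against 206 to 431 in the other libraries of the same age. Libraries also differed in their length gradient, the slope of a library's log2 CPM on the log2 of gene length relative to the other libraries of its table. It was lowest in AL replicate 4 (-0.158), IF16 replicate 1 (-0.114) and AL replicate 5 (-0.106) and highest in EOD replicate 4 (0.139), while the 8-month libraries spanned -0.0261 to 0.0416 on the scale of their own table. For comparisons between the ages it was taken relative to all 30 libraries. These are bulk samples, so fewer cells of a type and less RNA per cell cannot be told apart.

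Per length, the members spanned a wide range. Pvalb had the highest level, a mean of 1009 FPKM (read counts scaled to gene length and library total) over 30 libraries, rank 15 of all genes. Car8 followed at 385, Itpr1 at 283, Calb1 at 226, Rgs8 at 170, Ppp1r17 at 156, Slc1a6 at 121, Pcp2 at 110 and Homer3 at 102 FPKM. Slc1a6 and Pcp2 were neighbours whose library ranges overlapped (108 to 150 and 62.7 to 154 FPKM), as were Ppp1r17 and Rgs8 (129 to 176 and 147 to 186 FPKM). Gng13 stood below the rest at 14.3 FPKM and rank 5046, with a range of 9.14 to 19.6 FPKM. The summed CPM of the 10 members had a median of 7983 in the AL libraries, 8370 under IF16 and 8515 under EOD, and of 8835, 9073 and 9227 in the refed groups in the same order. Itpr1 was the member with the longest transcript and the highest CPM.

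**Figure D1:**
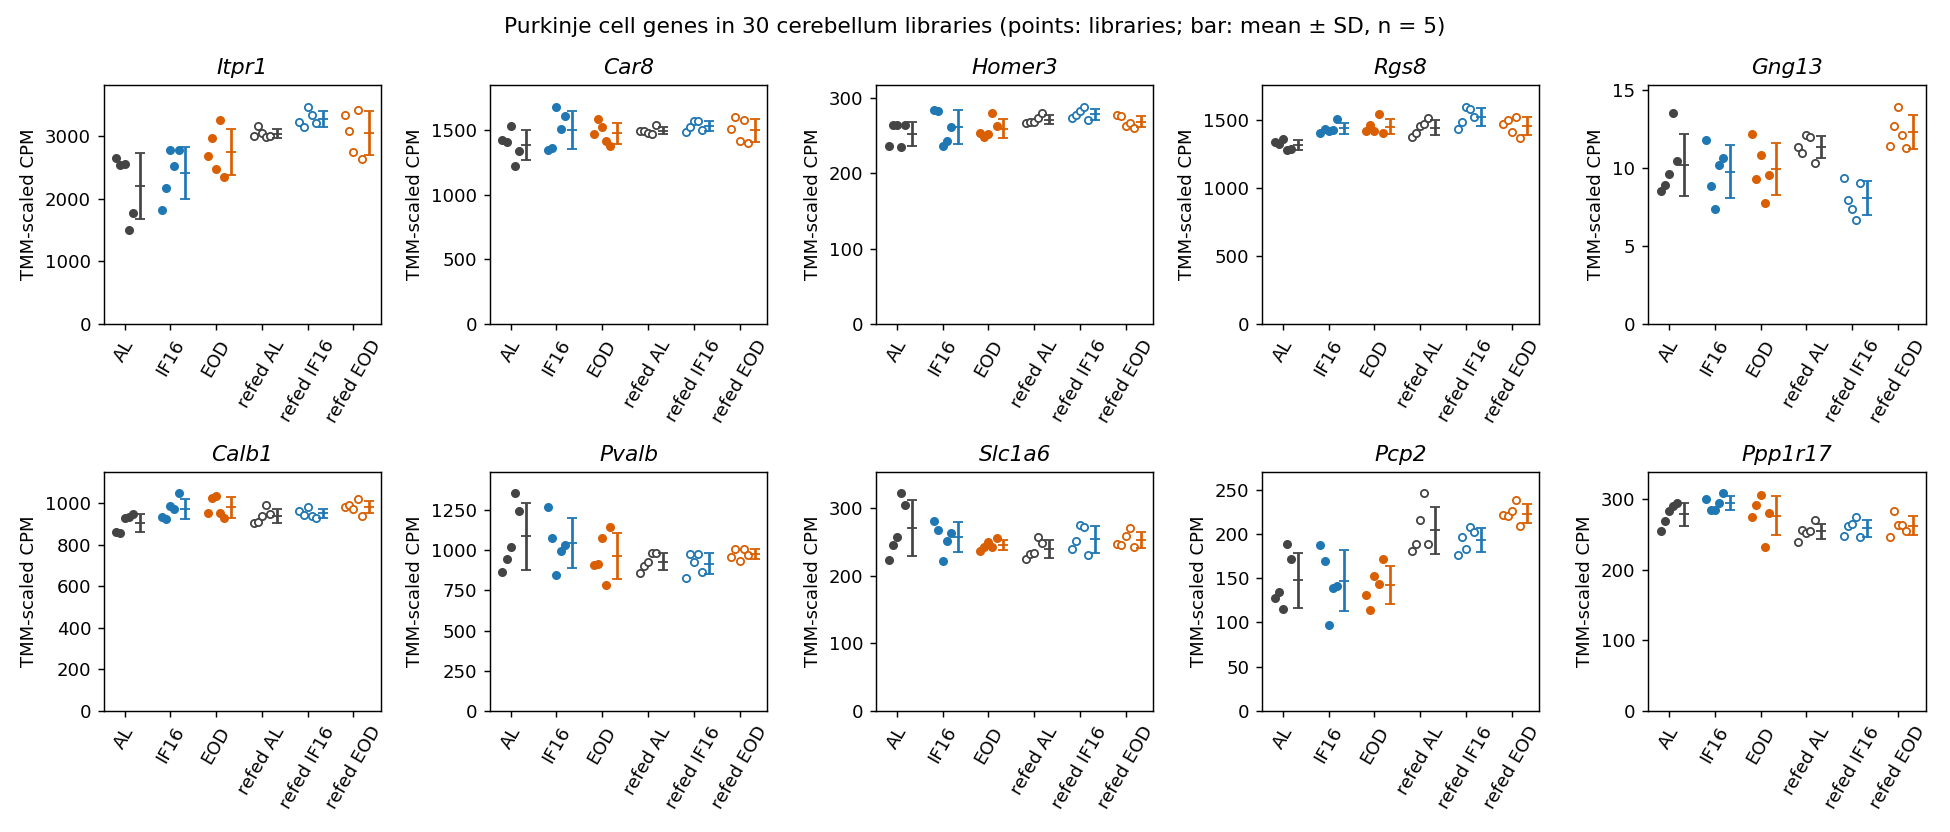
TMM-scaled CPM of the 10 members (y axis, from 0) in each library of the 6 groups (x axis; filled points 6 months, open points 8 months), with the mean and SD of 5 libraries beside them. Gng13 in refed IF16 lies at 6.67 to 9.34 CPM, below all refed AL and refed EOD libraries, and Pcp2 is higher in the 8-month groups.

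At the end of the regimens, no Purkinje cell gene was called different between either fasting group and AL. Across all genes, edgeR's quasi-likelihood test called 0.0483% in IF16 against AL and 0.0664% in EOD against AL at an adjusted p under 0.05. In IF16 against AL, 6 members had a fold change above 0 (48.7% of all genes did) and 4 below, with a median log2 fold change of 0.065 against -0.0062 over all genes tested. In EOD against AL, 5 lay on each side (46.7% of all genes lay above 0), with a median of 0.014 against -0.018. Approximate 95% intervals of the member differences were taken from the standard errors by a normal approximation, which is narrower than the test allows. They lay within -0.36 to 0.44 in the first comparison and within -0.44 to 0.63 in the second (log2). For the most variable members, changes up to about these limits were thus not excluded. Between EOD and IF16, none was called either, with 0% of all genes called and 3.62% at an unadjusted p under 0.05, and no member reached that level. DESeq2 called none in IF16 against AL or EOD against IF16 and 1, Rgs8, in EOD against AL. Of the genes it gave an adjusted p, it called 94 of 16250, 1 of 16572 and 133 of 15929 in these comparisons in turn.

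Of the signalling members, Rgs8 came nearest to a difference. Its level was 1340, 1320, 1360, 1280 and 1280 CPM in the AL libraries. It was 1400, 1430, 1420, 1430 and 1510 CPM in IF16 and 1420, 1460, 1420, 1550 and 1400 CPM in EOD. Every library of both fasting groups thus lay above every AL library. This was so for 1 of the 10 members in each comparison and for 1.51% of all genes in IF16 against AL and 2.92% in EOD against AL, and the comparisons share the AL libraries. The log2 fold change was 0.13 (SE 0.0513, edgeR adjusted p = 0.446) in IF16 and 0.14 (SE 0.0513, edgeR adjusted p = 0.314) in EOD, so neither passed the threshold. DESeq2 on the same counts gave an adjusted p of 0.0433 for EOD and 0.107 for IF16, while for EOD the fits with edgeR under other settings or without a library gave adjusted p from 0.163 to 0.696. Rgs8 was the only member with an unadjusted p under 0.05 in these comparisons, against 9.92% and 14.4% of all genes. After refeeding, refed IF16 and refed EOD overlapped refed AL, with log2 fold changes of 0.08 and 0.01 (edgeR adjusted p = 0.536 and 0.955). The change of the EOD difference between the ages was -0.13 (SE 0.0597, edgeR adjusted p = 0.474), so a difference between the ages was not shown.

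Itpr1, the IP3 receptor, had the widest spread of the calcium release genes. The AL libraries were at 2650, 2540, 2560, 1500 and 1780 CPM. In IF16 they were 1820, 2170, 2780, 2520 and 2780 CPM, and in EOD 2690, 2970, 2480, 3260 and 2350 CPM. The 3 libraries of lowest length gradient were those lowest in Itpr1, and EOD replicate 4, of highest gradient, was highest among the libraries of 6 months. The fold changes of 0.13 in IF16 and 0.32 in EOD (log2, SE 0.156 for both) did not pass the test (edgeR adjusted p = 0.755 and 0.353). Its partners Car8 and Homer3 had log2 fold changes between 0.04 and 0.12 in both comparisons, with adjusted p of at least 0.515.

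The calcium buffers did not pass the test either. Calb1 lay between 854 and 947 CPM in the controls, between 924 and 1046 under IF16 and between 927 and 1036 under EOD, with log2 fold changes of 0.10 and 0.11 (edgeR adjusted p = 0.561 and 0.364). Pvalb lay between 862 and 1355 CPM in the controls, 844 and 1273 under IF16 and 783 and 1144 under EOD, with log2 fold changes of -0.06 and -0.17 (edgeR adjusted p = 0.882 and 0.495). In both genes the groups overlapped. Slc1a6 (-0.08 and -0.14), Pcp2 (-0.01 and -0.05), Ppp1r17 (0.08 and -0.01) and Gng13 (-0.06 and -0.04) were as little separated, with adjusted p of at least 0.421.

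**Figure D2:**
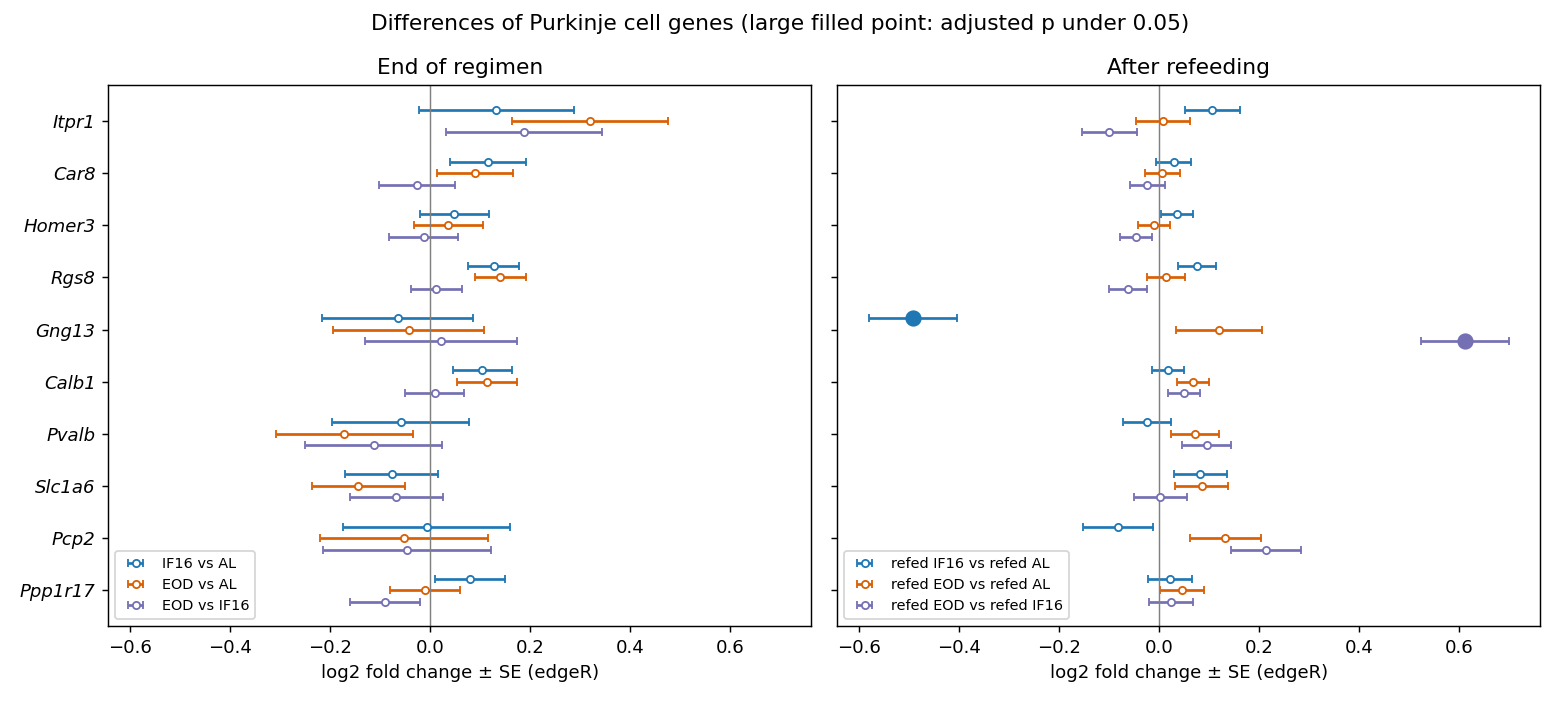
Log2 fold changes (x axis) with standard errors of each member (y axis) for the 3 comparisons at the end of the regimens (left) and the 3 after refeeding (right); large filled points have an adjusted p under 0.05. Only Gng13 after refeeding is called among these comparisons, at -0.49 in refed IF16 against refed AL and 0.61 in refed EOD against refed IF16.

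After refeeding, Gng13 was lower in the mice that had been on the daily fast. This gene (ENSMUSG00000025739, chromosome 17, 25717171 to 25719406, plus strand) encodes a G protein gamma subunit and is the shortest member, at 719 bases. Its levels were 11.3, 11, 12.1, 12 and 10.3 CPM in refed AL and 9.34, 7.95, 7.38, 6.67 and 9.04 CPM in refed IF16. In refed EOD they were 11.4, 12.7, 13.9, 12.1 and 11.3 CPM. All refed IF16 libraries lay below all libraries of the other refed groups (2.18% of all genes separated refed IF16 from refed AL in this way), and refed AL and refed EOD overlapped.

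The log2 fold change of Gng13 was -0.49 in refed IF16 against refed AL (SE 0.0881, edgeR adjusted p = 0.0312), from 11.3 ± 0.725 to 8.08 ± 1.12 CPM (SD, n = 5). It was 1 member called, lower, of 10, where the test called 0.17% of all genes. Against refed IF16, refed EOD was higher at 12.3 ± 1.08 CPM (SD, n = 5), a log2 difference of 0.61 (SE 0.088, edgeR adjusted p = 0.0111), again 1 of 10 members against 0.0182% of all genes. refed EOD against refed AL gave 0.12 (SE 0.0859, edgeR adjusted p = 0.751), and no member was called there by edgeR or DESeq2, against 0.0426% of all genes by edgeR. The refed IF16 libraries are shared by both comparisons that were called.

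These calls stood close to the threshold. For refed IF16 against refed AL, 1 of the 10 fits that left out a library kept the call, the one without refed IF16 replicate 1, with adjusted p from 0.00834 to 0.109 and log2 fold changes from -0.55 to -0.43. For refed EOD against refed IF16, 7 of 10 kept it, and it was lost without refed IF16 replicate 3, refed EOD replicate 2 or refed EOD replicate 3 (adjusted p = 0.0697, 0.0575 and 0.0634). Every refed IF16 library had a higher length gradient than every refed AL library, 0.00465 to 0.0416 against -0.0257 to -0.00359. With the gradient as a covariate the fold changes were -0.43 and 0.55, with edgeR adjusted p of 0.999 and 0.874 (unadjusted p = 0.00469 and 0.000394). In that fit 0 of 16444 genes were called in either comparison, so the loss of these calls was not particular to Gng13. With the choroid plexus markers as a covariate they were -0.46 and 0.57, and both calls remained (edgeR adjusted p = 0.0213 and 0.00871).

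Before refeeding, Gng13 was 10.2 ± 2 CPM in the controls, 9.77 ± 1.7 under IF16 and 9.93 ± 1.66 under EOD (SD, n = 5), and the libraries of these groups overlapped. The change of the IF16 difference between the ages was -0.43 (SE 0.18, edgeR adjusted p = 0.628), so it was not shown that the difference arose with refeeding. In that test edgeR and DESeq2 called no member, against 0.0474% of all genes by edgeR, and 1 member, Gng13, had an unadjusted p under 0.05, against 7.21%. In the same test for EOD neither tool called a member, against 0.0119%, and 2 members, Slc1a6 and Rgs8, had an unadjusted p under 0.05, against 10.3%. The last 481 bases of the gene's span (25718926 to 25719406) overlap Chtf18, which lies on the opposite strand, and the handling of strand in counting is not given in the sources used here. Chtf18 itself had a mean of 170 counts against 332 for Gng13, and its log2 fold changes were -0.09 in refed IF16 against refed AL and 0.03 in refed EOD against refed IF16 (edgeR adjusted p = 0.819 and 0.949).

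Pcp2 also separated the refed groups, without passing the test. It was at 176, 197, 183, 208 and 202 CPM in refed IF16 and at 222, 221, 226, 239 and 210 CPM in refed EOD. All refed EOD libraries lay above all refed IF16 libraries, which was so for 2 of 10 members (with Gng13) and 1.29% of all genes. The log2 fold change was 0.21 (SE 0.0706, edgeR adjusted p = 0.333). refed AL, at 181, 189, 216, 246 and 188 CPM, overlapped both.

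The other 8 members differed little after refeeding. In refed IF16 against refed AL their log2 fold changes ran from -0.02 for Pvalb to 0.11 for Itpr1, and in refed EOD against refed AL from -0.01 for Homer3 to 0.09 for Slc1a6. In refed EOD against refed AL, 9 of 10 members had a fold change above 0, where 50.3% of all genes did. Calb1 was the only member there with an unadjusted p under 0.05, against 8.5% of all genes, at 980 ± 28.8 CPM in refed EOD and 937 ± 34.4 in refed AL (SD, n = 5), a log2 difference of 0.07 (edgeR adjusted p = 0.575). The median log2 fold change of the 10 members was 0.026 in refed IF16 and 0.057 in refed EOD, against -0.0023 and 0.00067 over all genes.

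Between 6 and 8 months of age, Pcp2 was the member called in every regimen. In the controls, 3 of the 10 rose from AL to refed AL (Pcp2, Itpr1 and Rgs8) and none fell, where 23.9% of all genes were called, so a share of this size is near that of all genes. Age and the set of libraries deposited together cannot be told apart in this comparison. A comparison of 8 against 6 months was added, after the data were seen, for the fasted groups, whose libraries are not shared with the controls. There the end of fasting and the 2 months of refeeding cannot be told apart from age and the set of libraries either. In refed IF16 against IF16, 2 members rose (Pcp2 and Itpr1) and 1 fell (Ppp1r17), against 15.6% of all genes called. In refed EOD against EOD, 1 rose (Pcp2), against 1.91%.

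Pcp2 (ENSMUSG00000004630, chromosome 8, 3623371 to 3625545, minus strand) was at 128, 135, 115, 189 and 172 CPM in AL, 188, 170, 97.7, 139 and 141 CPM in IF16 and 131, 114, 153, 143 and 172 CPM in EOD, before the levels given above for the refed groups. The EOD and refed EOD libraries did not overlap (nor did they for 5.73% of all genes), while AL replicate 4 lay above some refed AL libraries and IF16 replicate 1 above some refed IF16 libraries. Means rose from 148 ± 31.2 to 204 ± 27 CPM in the controls, from 147 ± 34.5 to 193 ± 13.2 after IF16 and from 143 ± 21.8 to 224 ± 10.5 after EOD (SD, n = 5 each). The log2 fold changes were 0.47 (SE 0.134, edgeR adjusted p = 0.0169), 0.39 (SE 0.134, edgeR adjusted p = 0.0442) and 0.65 (SE 0.134, edgeR adjusted p = 0.00876).

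With the length gradient as a covariate these differences of Pcp2 were 0.79, 0.71 and 0.73, and all were called (edgeR adjusted p = 0.00163, 0.000823 and 2.71e-05). Relative to all 30 libraries, the gradient ran from -0.187 to 0.016 in AL and from 0.0133 to 0.0331 in refed AL. In IF16 it was -0.148 to 0.0229, below refed IF16 (0.043 to 0.0786), and refed EOD lay within the range of EOD. In the controls and IF16, covariate and age are thus partly confounded, also for the members below. The covariate has 1 slope for both ages. With group means subtracted, Pcp2 had r = -0.775 with the gradient at 6 months and -0.0126 at 8 months. With the choroid plexus markers as a covariate the Pcp2 differences were 0.48, 0.41 and 0.66, and the call after IF16 was lost (edgeR adjusted p = 0.0454, 0.081 and 0.0185). Leaving out AL replicates 4 and 5 and IF16 replicate 1, whose gradients were lowest, gave 0.70 in the controls and 0.51 after IF16 (edgeR adjusted p = 0.0087 and 0.00372). When each library was left out in turn, the call held in all 10 fits for the controls and all 10 for EOD, but in 3 of 10 for IF16, where the adjusted p reached 0.105 without IF16 replicate 3. Fitted on the 2 groups alone, the adjusted p was 0.0745 in the controls, 0.0627 for IF16 and 0.00129 for EOD. Neither regimen's interaction was called for Pcp2 (edgeR adjusted p = 0.958 for IF16 and 0.687 for EOD). Pet100, which overlaps Pcp2 by 861 bases on the opposite strand, had a mean of 294 counts against 5698 and log2 fold changes of -0.01, -0.24 and 0.03 in the 3 comparisons, none of them called.

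The age difference of Itpr1 was not called with that covariate. All 15 refed libraries lay between 2640 and 3475 CPM. The log2 fold change was 0.46 in the controls (SE 0.124, edgeR adjusted p = 0.0124), 0.44 after IF16 (SE 0.124, edgeR adjusted p = 0.018) and 0.15 after EOD (SE 0.124, edgeR adjusted p = 0.591). With the gradient as a covariate these were 0.11, 0.08 and 0.06 and none was called (edgeR adjusted p = 0.364, 0.444 and 0.54). Without AL replicate 4 the difference in the controls was 0.35, and without AL replicate 5 it was 0.40 (edgeR adjusted p = 0.0598 and 0.0539).

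Rgs8 rose from 1316 ± 34.5 to 1443 ± 55.1 CPM between AL and refed AL (SD, n = 5), a log2 difference of 0.13 (SE 0.0422, edgeR adjusted p = 0.0266), and the groups did not overlap. With the gradient as a covariate it was 0.08 (edgeR adjusted p = 0.412). Ppp1r17, the phosphatase inhibitor, fell by 0.19 on the log2 scale between IF16 and refed IF16 (SE 0.0574, edgeR adjusted p = 0.029), from a range of 285 to 309 CPM to one of 246 to 275 that did not overlap it (12.7% of all genes), and by 0.10 with the gradient as a covariate (edgeR adjusted p = 0.315). Of the members not called in the controls, Pvalb was at -0.22, Slc1a6 at -0.18 and Ppp1r17 at -0.13 (edgeR adjusted p = 0.109, 0.0782 and 0.0936). With the covariate those values were 0.10, -0.01 and -0.04. Without AL replicate 1, Pvalb was called lower, at -0.29 (edgeR adjusted p = 0.0292). The groups of controls did not overlap for Itpr1, Rgs8 and Homer3, and did not for 9.72% of all genes.

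**Figure D3:**
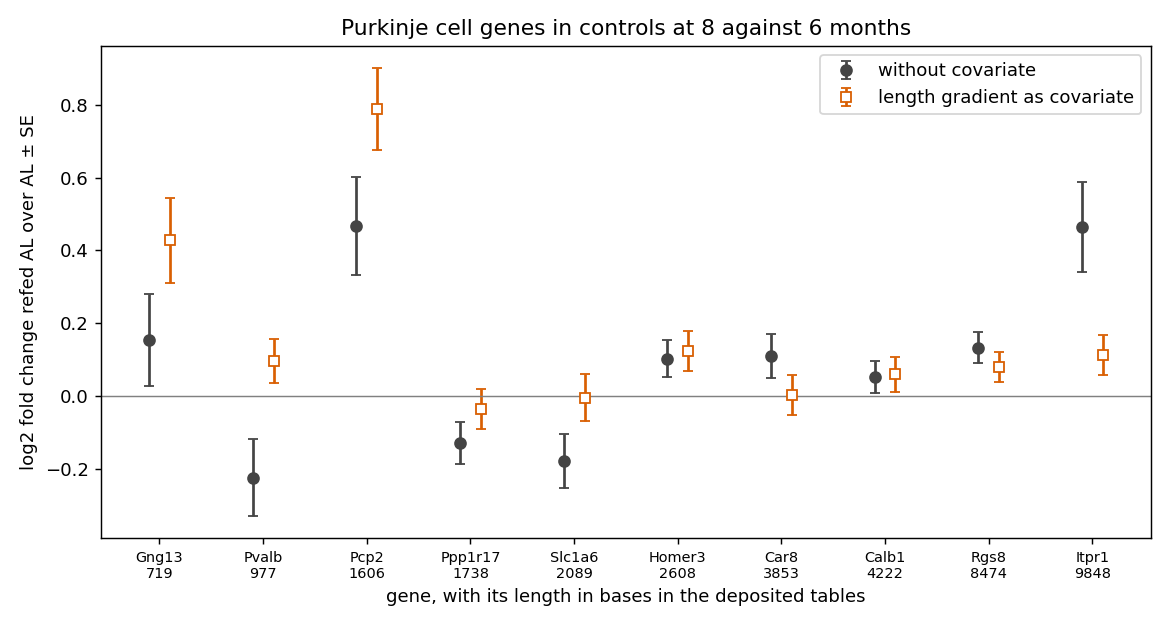
Log2 fold change of each member from AL to refed AL (y axis, with standard errors), ordered by gene length (x axis), without a covariate (filled) and with the length gradient as one (open). Pcp2 stays high, at 0.47 and 0.79, while Itpr1 goes from 0.46 to 0.11 and Pvalb from -0.22 to 0.10.

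Some markers of other cells were also called between the ages in the controls, where 11.5% of all genes were called higher and 12.4% lower. In lists this short, a count of 1 cannot be told apart from those shares. Of the oligodendrocyte markers 3 of 5 fell and of the molecular layer interneuron markers 2 of 4 rose, with summed levels of 5228 to 6070 CPM in AL against 4557 to 5059 in refed AL for the first and 213 to 301 against 314 to 329 for the second. Red blood cell markers rose for 3 of 5 (11 to 58.1 CPM in AL, 8.7 to 114 in refed AL) and granule cell markers for 2 of 6 (3777 to 4767 and 4763 to 4966 CPM). Of the unipolar brush cell markers 1 of 3 fell, as did 1 of 5 for microglia and 1 of 4 for endothelium, and of 3 tested markers of brainstem and cerebellar nuclei 1 rose and 2 fell. No choroid plexus marker was called between the ages in any regimen, but all 10 had a fold change below 0 in each, with a median log2 fold change of -1.44 in the controls, -1.64 after IF16 and -1.51 after EOD. From IF16 to refed IF16, 2 of 6 granule cell, 1 of 4 molecular layer interneuron and 1 of 5 microglia markers rose. So did 2 of 4 endothelium and 1 of 3 tested forebrain markers, and 1 of 5 oligodendrocyte markers fell. Of all genes, 7.57% were called higher and 8.05% lower there. From EOD to refed EOD, 1 of 5 microglia and 1 of 4 endothelium markers rose, against 0.847% of all genes called higher. The part of these cells in the differences of the Purkinje cell genes was not tested. In refed IF16 against refed AL, the astrocyte gene Aqp4 was the only marker called among those listed for other cells, against 0.17% of all genes. Its group summed to 2039 to 2201 CPM in refed IF16 and 1849 to 2067 in refed AL.

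In the 6-month libraries some long members rose and some short members fell along the length gradient. Because the gradient is the slope on gene length, such directions are in part built into the gradient. Itpr1, at 9848 bases, followed it with Pearson r = 0.975 (permutation p = 1e-05, adjusted 0.0002; Spearman rho = 0.954, adjusted p = 0.0002; n = 15), and r was 0.963 once the 2 libraries whose gradients lay farthest from the median were left out. Pvalb, at 977 bases, went the opposite way with r = -0.955 (permutation p = 1e-05, adjusted 0.0002; rho = -0.943, adjusted p = 0.0002; n = 15), and r was -0.924 without the farthest 2. With 100000 resamples no p can be under 1e-05, and 40 relations were computed, each of the 10 members with the gradient and with the choroid plexus mean in both tables. Slc1a6 (r = -0.866, adjusted permutation p = 0.00133) and Pcp2 (r = -0.722, adjusted permutation p = 0.018) also fell with the gradient, and Car8 rose (r = 0.68, adjusted permutation p = 0.025). Calb1, which at 4222 bases is longer than Car8, had r = 0.168 (adjusted permutation p = 0.689). Ppp1r17 had r = -0.558 and Homer3 r = -0.0769 (adjusted permutation p = 0.114 and 0.848). Rgs8, the second longest member, had r = 0.692 and Gng13 r = -0.69 (adjusted permutation p = 0.0214 for both), but r was 0.412 and -0.431 without the farthest 2 libraries, so these relations rested largely on them.

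In the 8-month libraries, whose gradients span less, Itpr1 still followed the gradient (r = 0.771, adjusted permutation p = 0.0079; rho = 0.879; r = 0.83 without the farthest 2; n = 15) and Pvalb did not (r = -0.294, adjusted permutation p = 0.525). Gng13 had r = -0.713 there (adjusted permutation p = 0.0197), but -0.144 once each group's mean was subtracted. No member was related to the choroid plexus mean at an adjusted p under 0.05 in either table. Among the 45 pairs of members, the lowest correlation in the 6-month libraries was -0.913 between Itpr1 and Pvalb, and the highest 0.894 between Pvalb and Slc1a6 (permutation p = 1e-05 and adjusted 0.00045 over 90 pairs, for both; n = 15). The median over the pairs was 0.154 at 6 months, with 22 of 45 negative, and 0.365 at 8 months, with 10 of 45 negative.

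**Figure D4:**
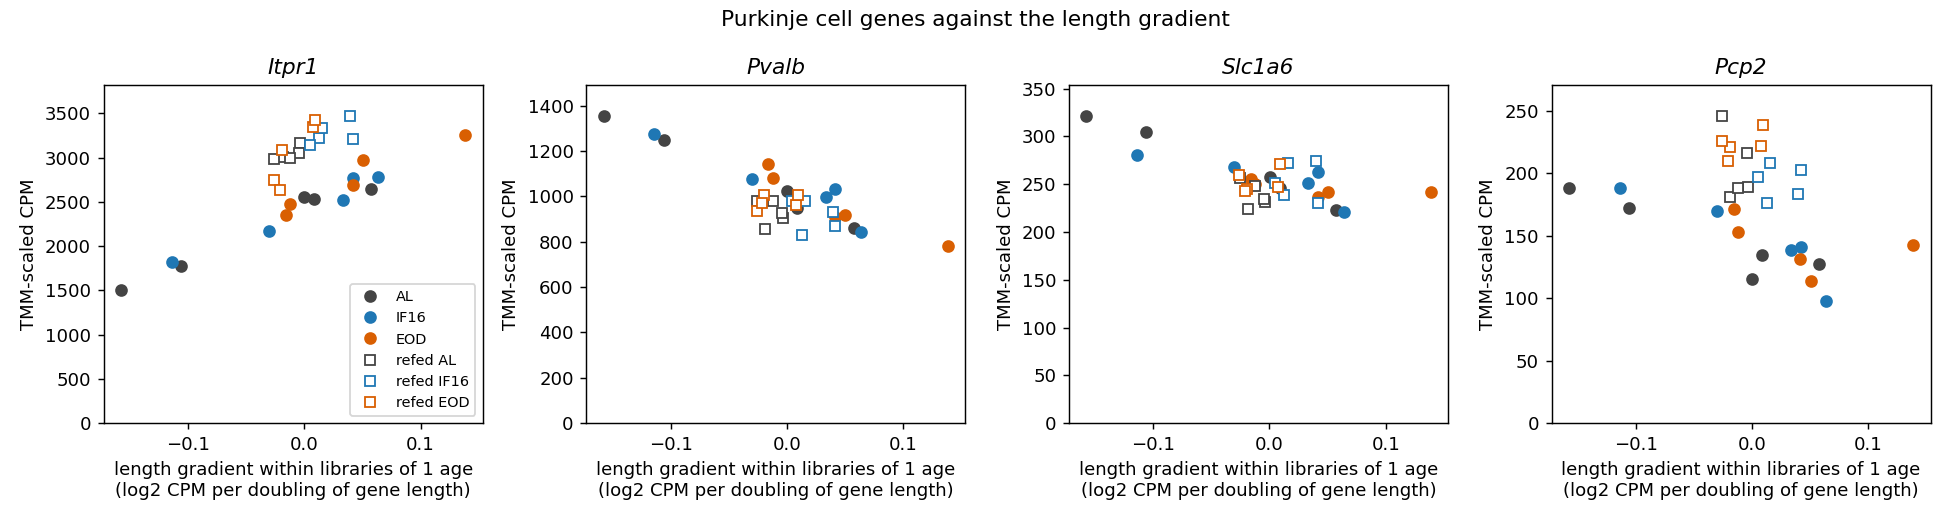
TMM-scaled CPM (y axis, from 0) of Itpr1, Pvalb, Slc1a6 and Pcp2 in each library against the library's length gradient relative to the libraries of the same age (x axis, so that positions are not comparable between the ages), filled circles for 6 months and open squares for 8 months, coloured by regimen. In the 6-month libraries Itpr1 rises along the gradient (r = 0.975) and the other genes fall.

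Libraries of a group also agreed less at 6 months than at 8. The standard deviation of log2 CPM within groups was larger at 6 months for 9 of the 10 members, as it was for 86.7% of the genes with a mean of at least 10 CPM. It was 0.285 against 0.103 for Itpr1, 0.301 against 0.127 for Pcp2 and 0.236 against 0.0819 for Pvalb. Rgs8 was the exception, at 0.0454 and 0.0611. The median over those genes was 0.151 at 6 months and 0.0818 at 8 months.

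A further 31 genes known from Purkinje cells, covering IP3 signalling, the synapse, transcription factors and other enriched genes, were all tested. This list too was chosen with earlier results of these data known. How much of the RNA of these genes came from other cells was not tested. With all libraries and no block or covariate, none was called by edgeR in the 6 comparisons of regimens or in the tests of the change between ages. In refed EOD against refed IF16, edgeR called 3 lower without refed EOD replicate 1, 1 lower without refed IF16 replicate 1 and 1 lower with the replicate block, and in refed EOD against refed AL it called 1 lower without refed EOD replicate 1. Of all genes, 30, 13, 15 and 11 were called lower in these fits in turn. DESeq2 called at most 3 in any of these, all 3 lower in refed EOD against refed IF16, where it called 123 of 7199 genes. In EOD against AL, 6 were higher and 3 lower at an unadjusted p under 0.05 (7.02% and 7.4% of all genes), and in refed EOD against refed IF16, 2 were higher and 7 lower (4.99% and 4.76%). Nrgn, a calmodulin-binding protein of many neurons, had the smallest p in IF16 and in EOD against AL (log2 fold change -2.66 and -2.64, edgeR adjusted p = 0.196 and 0.189), and rested on the 2 AL libraries named above. Without them it was at -0.32 and -0.30 (edgeR adjusted p = 0.584 and 0.474). Pcp4, a calmodulin regulator, was at -0.53 in refed IF16 against refed AL (SE 0.162, edgeR adjusted p = 0.293), at low means of 2.72 and 3.93 CPM. The transcriptional repressor gene Skor2 was at -0.26 in refed EOD against refed IF16 (SE 0.0642, edgeR adjusted p = 0.228).

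From AL to refed AL, 13 of these 31 genes rose and 2 fell, against 11.5% and 12.4% of all genes. Of the signalling genes, the G protein gene Gnaq rose by a log2 fold change of 0.30 and the phospholipase gene Plcb4 by 0.28 (edgeR adjusted p = 0.0439 and 0.0286). At the synapse the scaffold gene Shank2 rose by 0.46 (edgeR adjusted p = 0.0154). Rora, Etv1 and Lhx1, all transcription factors, rose by 0.47, 0.48 and 0.21, as did Arhgap26 by 0.21 (edgeR adjusted p between 0.00846 and 0.0487). Pcp4l1 fell by 0.39 on the log2 scale and Nrgn fell by 2.82 (edgeR adjusted p = 0.00553 and 0.00165).

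Those calls depended on the fit. With the length gradient as a covariate, or without the 3 libraries of lowest gradient, 1 of the 31 was called, Nrgn. Of all genes, 223 of 16877 and 151 of 17132 were called in these fits in turn, against 4030 of 16877 as reported. Fitted on AL and refed AL alone, none of the 31 was called, against 28 of 16313 genes. Without AL replicates 1 and 4, 8 of the 31 were called (among them Gnaq, Shank2, Rora and Etv1 higher, and Pcp4l1 lower), against 2504 of 17138 genes. Nrgn was then at -0.49 (edgeR adjusted p = 0.0505). From IF16 to refed IF16, 8 of the 31 rose (among them Shank2, Skor2, Cacna1g and Atp2a3), against 7.57% of all genes. All 8 were also called without the 3 libraries of lowest gradient, where 1408 of 17132 genes were called higher. With the gradient as a covariate 2 of the 31 rose, where 438 of 16877 genes were called higher. From EOD to refed EOD none was called, and 1 gene had an unadjusted p under 0.05, against 15.8% of all genes.

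The genes most like the members were found by correlating each of 14032 other protein-coding genes with the mean of the 10 members' scaled log2 CPM over the 15 libraries of each table, and ranking by the lower of the 2 values. Nsg1 came first (r = 0.889 at 6 months and 0.77 at 8 months), then Kcnip1 (0.854 and 0.722), D6Wsu163e (0.691 and 0.688), Pamr1 (0.861 and 0.672) and Ywhah (0.817 and 0.664). Within the members themselves, the correlation of each gene with the mean of the other 9 was above 0.5 at 8 months for 7 of them, from 0.511 for Homer3 to 0.748 for Slc1a6. It was 0.404 for Pcp2 and 0.351 for Itpr1, and Gng13 alone was negative at 8 months, at -0.252. At 6 months Itpr1 (-0.472) and Car8 (-0.219) were negative. These points share library, depth and length gradient, and are given as a description.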

How the data were processed

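Per the file headers and the labels, raw gene counts of 15 libraries fill each of the 2 tables that the authors deposited, beside FPKM values that equal counts over gene length and library total. Per the submitters' processing notes, STAR 2.5, HTSeq 0.6.1 and mm10 were used; strand handling is not given in the sources used here. Counts were tested with edgeR 4.0.16 in R 4.3.3 (TMM, filterByExpr by group, quasi-likelihood test, two-sided), in 1 fit per table (16577 and 16444 genes) and in a joint fit of 30 libraries (16877 genes) for the ages and interactions. P-values were adjusted by Benjamini-Hochberg over all genes tested, with calls at an adjusted p under 0.05. CPM values carry 1 TMM scale over all libraries. Standard errors were derived from the F statistic. Alternatives were DESeq2 1.42.0, RLE normalization, other filters, covariates, a replicate block, only the 2 groups compared and leaving out libraries. DESeq2 without independent filtering, sets of libraries left out together and the comparisons of fasted groups across ages were chosen after seeing the data. The edgeR test was also run on simulated counts that held no length gradient and no outlying libraries. That run therefore says nothing about their effect on the calls. The members and lists were chosen with earlier results of these data known. All 10 members are named; of the further list, the called genes and the smallest p of a comparison are, except some that are not reported here. Among 60 pairs of libraries of one group, chi-square per degree of freedom was at least 4.23, so none agreed within sampling noise.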

Additional observations from a re-analysis of the deposited data

Results flagged for a closer look

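Of the 60 combinations of member and group, 1 was set apart by a single library. Rgs8 in IF16 replicate 5 was at 1510 CPM against 1430 for the next highest library of its group, a gap of 0.722 of the group's range, where the critical value for 5 samples is 0.71. Chance alone sets about 1 in 20 groups apart by this measure. Without that library the log2 fold change of Rgs8 in IF16 against AL was 0.11 (edgeR adjusted p = 0.742).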

How the results depend on the processing

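Under 1 alternative at a time, no member called in the fits as reported changed direction. Pvalb from AL to refed AL, at -0.22 and not called as reported, was called at -0.29 without AL replicate 1 and was at 0.10, not called, with the length gradient. The number of members called in EOD against AL went from 0 to 1 (Rgs8) with DESeq2, with or without its independent filtering. Of all genes, DESeq2 called 133 and 128 there. In refed IF16 against refed AL it went from 1 to 0 with the length gradient as covariate, where no gene at all was called, and ranged from 0 to 1 when a library was left out. In refed EOD against refed IF16 it went from 1 to 0 with the gradient and with only the 2 groups compared. In both of those fits no gene at all was called. It ranged from 0 to 1 there when a library was left out, and DESeq2 gave no adjusted p for Gng13 in that comparison. From AL to refed AL it went from 3 to 1 with the gradient, with the choroid plexus markers as covariate or without the 3 libraries of lowest gradient, and to 0 with only the 2 groups compared. Of all genes, 223, 1239, 151 and 28 were called in these settings in turn, against 4030 as reported. The number of members called there ranged from 1 to 6 when a library was left out (6 without AL replicate 1, 1 without AL replicate 4 or 5). From IF16 to refed IF16 it went from 3 to 1 with the gradient and 0 with the choroid plexus markers, where 862 and 1197 of all genes were called, against 2637 as reported. It ranged from 1 to 3 when a library was left out. From EOD to refed EOD it went from 1 to 2 with the gradient, where Gng13 was also called. Of all genes, 937 were called in that fit, against 323 as reported. The cause of these changes was not tested. Of 2389 further values of single members, 2183 kept direction and side of the threshold.

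The replicate numbers were not used as pairs in the fits as reported. In no 2 groups did all 5 same-numbered pairs correlate above 0.1 in their deviations from the group means (lowest -0.534, highest 0.427). Between refed AL and refed IF16 these correlations ran from 0.0926 to 0.427, against -0.249 to 0.174 for other pairs. With the replicate block, edgeR called 95 genes in place of 28 in refed IF16 against refed AL. It called 45 in place of 7 in refed EOD against refed AL, and 40 in place of 3 in refed EOD against refed IF16. What samples of the same number share was not tested. The replicate block left the counts of members called at 0, 0, 0, 1, 0, 1, 0, 0, 3, 3 and 1 in the order IF16, EOD and EOD against IF16 before refeeding, the same after it, the interactions and the comparisons of ages.

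Across all genes, the number called moved by over 1.5 times under some alternative in each comparison with a call, over the fits that left out a library and the other settings. It went from 8 to between 3 and 94 in IF16 against AL, from 11 to between 2 and 133 in EOD against AL, from 28 to between 0 and 105 in refed IF16 against refed AL, from 7 to between 0 and 87 in refed EOD against refed AL and from 3 to between 0 and 123 in refed EOD against refed IF16. It went from 4030 to between 28 and 6173 from AL to refed AL, from 2637 to between 862 and 3359 from IF16 to refed IF16 and from 323 to between 150 and 937 from EOD to refed EOD, and for the interactions from 8 to between 5 and 36 (IF16) and from 2 to between 0 and 14 (EOD). Of the 31 further genes, the number called ranged from 0 to 18 from AL to refed AL (15 as reported) and from 2 to 10 from IF16 to refed IF16 (8 as reported). In refed EOD against refed IF16 it ranged from 0 to 3 and in refed EOD against refed AL from 0 to 2 (0 as reported in both).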
